A study of Mus musculus with 20 samples.

Results

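The heart takes most of its fuel as long-chain fatty acids, and the proteins that release, capture and carry them form a short chain from the capillary to the mitochondrion. Lipoprotein lipase (Lpl) frees fatty acids from circulating triglyceride while it is held on the capillary wall by Gpihbp1, and Vldlr binds triglyceride-rich particles. Cd36 and the transport proteins Slc27a1 and Slc27a4 pass fatty acids over the cell membrane, Got2 is a mitochondrial aspartate aminotransferase that was also described as a fatty acid binding protein of the plasma membrane, and Fabp3, Fabp4 and Fabp5 bind fatty acids inside the cell. These 10 genes were chosen by their symbols, and each had 1 row among the 29339 genes of the expression table. Their levels were followed over all 20 heart libraries, by the labelled genotype and sex and by the 2 series of library names.

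The study asked what loss of Tecrl, an endoplasmic reticulum gene related to an enzyme of very long-chain fatty acid synthesis, does to expression in the heart. Heart tissue came from C57BL/6 mice aged 8 weeks, either wild-type (WT) or Tecrl knockout (KO), and neither genotype was labelled with a treatment. The labels gave 5 male WT libraries (WT1, WT2, S7, S8 and S9), 5 male KO libraries (S10, S11, S12, TKO5 and TKO6), 3 female WT libraries (S1 to S3) and 7 female KO libraries (S4 to S6 and TKO1 to TKO4). Thus 12 libraries were S-named and 8 were named WT or TKO, and no WT-named library was labelled female. Nothing in the labels says which mice shared a litter, so p-values measure the spread between these libraries.

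Libraries held 12540002 to 20038593 counted reads, of which 15.3% to 30.4% were mitochondrial. The cardiomyocyte markers summed to 45003 to 69806 CPM (counts scaled to a common library size after TMM normalization, which allows for library composition) over the libraries, in keeping with the labelled tissue. Tecrl itself did not separate the labels. Its level was 51.9 to 123 CPM in libraries labelled male WT, 60.3 to 99.4 CPM in those labelled male KO, 75.5 to 85.2 CPM in those labelled female WT and 70.4 to 95.3 CPM in those labelled female KO. Its adjusted p was 0.992 in the labelled male and 0.4 in the labelled female comparison (edgeR quasi-likelihood test), and which exons the knockout removes was not given in the sources used here. In 6 libraries the sex-linked genes went against the label: S7, S8 and S9, labelled male WT, held 3729 to 5291 Xist counts and 0 counts of 4 Y-linked genes, while S4, S5 and S6, labelled female KO, held 2631 to 3172 Y-linked counts and at most 4 of Xist. Every genotype below is therefore the labelled one.

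The 10 genes lie on 7 chromosomes, and the coordinates are those of GENCODE vM21 on GRCm38. Fabp4 (chr3:10204088-10208576, minus strand) and Fabp5 (chr3:10012548-10016607, plus strand) both lie on chromosome 3, and Fabp3 lies at chr4:130308595-130315463 on the plus strand. Lpl (chr8:68880491-68907448), Slc27a1 (chr8:71568882-71587302) and Got2 (chr8:95864134-95888547) share chromosome 8, with Got2 on the minus strand. Cd36 spans chr5:17781690-17888801 on the minus strand. Gpihbp1 lies at chr15:75596628-75599481, Vldlr at chr19:27216484-27254231 and Slc27a4 at chr2:29802634-29817522, all on the plus strand. Exons of Fabp3 overlap the opposite-strand genes Zcchc17 and Gm10570, and exons of Got2 overlap Gm45760. The library kit does not mark strand, so reads in those overlaps cannot be told apart. Zcchc17 had 0.408% to 1.3% as many counts as Fabp3, and the processed pseudogene Fabp3-ps1 carried 0.723% to 1.18% as many counts as Fabp3.

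The stretches before the start sites of Cd36 and Vldlr are shown because these genes were lowest in the same 4 libraries, described with the library series. They are from RefSeq on GRCm38.p6, which held windows of 300 bases around the starts of 6 of the 10 genes, among them Fabp3. Fabp3 was lowest in those 4 libraries too, but all 250 bases before its start lie in annotated exons and are not shown. Each sequence is the 250 bases before the start, written 5′ to 3′ on the gene's strand, at chr5:17835897-17836146 for Cd36 and chr19:27216234-27216483 for the first of 2 Vldlr starts. The Cd36 window lies inside the GENCODE span of that gene and not before its 5′ end. It precedes the only Cd36 start in the set of windows. Capitals mark matches, on either strand, to AGGTCA (a nuclear receptor half-site), CCAAT and GGGCGG (a GC box); TATAAA was searched as well.
Cd36: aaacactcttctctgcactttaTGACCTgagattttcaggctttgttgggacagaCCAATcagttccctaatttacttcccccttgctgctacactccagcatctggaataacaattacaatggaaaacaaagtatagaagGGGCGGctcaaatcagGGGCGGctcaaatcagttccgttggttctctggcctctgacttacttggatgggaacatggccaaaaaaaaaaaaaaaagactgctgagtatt
Vldlr: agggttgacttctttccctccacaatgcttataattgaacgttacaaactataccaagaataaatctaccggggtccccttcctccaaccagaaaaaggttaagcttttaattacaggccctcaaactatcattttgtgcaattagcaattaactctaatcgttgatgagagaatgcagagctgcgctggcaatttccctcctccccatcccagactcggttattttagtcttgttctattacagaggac

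In the Cd36 window AGGTCA was found once, on the opposite strand, CCAAT once and GGGCGG 2 times, with no overlap between matches. The printed Vldlr window and the Fabp3 window held none of the 4 motifs, and the window of the other Vldlr start held CCAAT and GGGCGG once each on the opposite strand. Over all 32851 windows of that length, 16.3% held AGGTCA, 13.6% TATAAA, 37.4% CCAAT and 35.7% GGGCGG, so each Cd36 match is of a common kind. A match is a description of letters and not a binding site.

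Fabp3, the heart-type fatty acid binding protein, was by far the highest of the 10 genes per length of transcript. Its median over the 20 libraries was 4413 FPKM (fragments scaled for gene length and depth, as deposited), the rank 9 of all genes. The intracellular binding proteins differed widely from each other. Fabp3 made up 81.3% to 94.1% of the summed FPKM of Fabp3, Fabp4 and Fabp5 in a library, and Fabp5, the epidermal type, 0.196% to 0.754%. Fabp4, the adipocyte type that is also known from capillary endothelium, had a median of 428 FPKM. Cd36 followed Fabp3 with 677 FPKM and Lpl with 568 FPKM. Got2 stood at 152 FPKM, Gpihbp1 at 112 FPKM, Slc27a1 at 30.5 FPKM, Vldlr at 22.4 FPKM, Fabp5 at 15.7 FPKM and Slc27a4 at 5.01 FPKM.

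**Figure D1:**
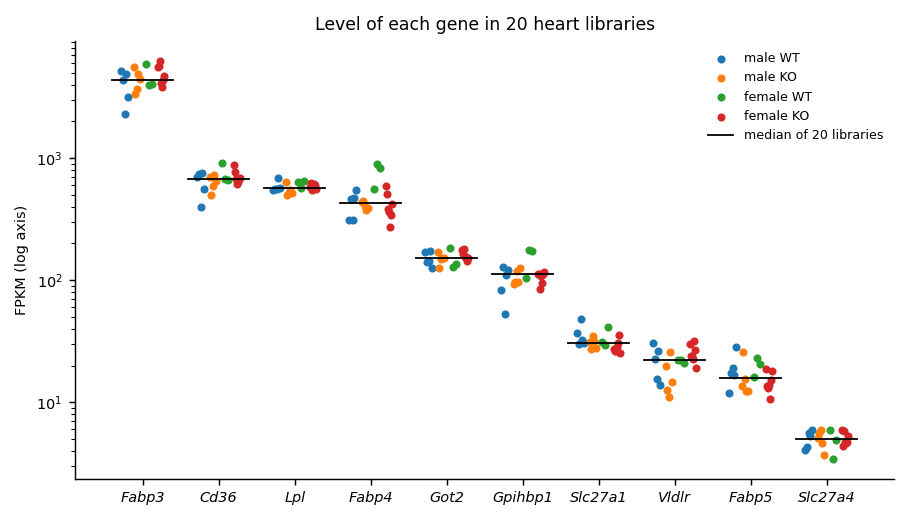
FPKM (log axis) of each of the 10 genes in 20 libraries, with 1 point per library coloured by labelled group and a line at the median of 20 libraries. Fabp3 lies between 2301 and 6305 FPKM, above every other gene in each library, and Slc27a4 between 3.44 and 5.93 FPKM, below every other gene.

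Some neighbours in this order were not apart. Cd36 was above Lpl in 18 of 20 libraries and Lpl above Fabp4 in 17 of 20. Got2 was above Gpihbp1 in 18, Slc27a1 above Vldlr in 18 and Vldlr above Fabp5 in 15 of 20 libraries. The ranges of these pairs overlapped. Fabp3 over Cd36, Fabp4 over Got2, Gpihbp1 over Slc27a1 and Fabp5 over Slc27a4 held in all 20 libraries, with no overlap of the ranges. Over the 20 libraries Vldlr, Fabp4 and Gpihbp1 varied most, with an SD of log2 CPM of 0.49, 0.44 and 0.40, and Lpl least, with 0.15.

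In the labelled male comparison none of the 10 genes differed between genotypes at an adjusted p under 0.05, and none passed the thresholds that the study used, a change of 0.58 or more on the log2 scale in either direction together with an unadjusted p under 0.05. The first rule called 0 of 14481 genes in this comparison (0.0%), where 688 had an unadjusted p under 0.05 and DESeq2 called 12, and the second rule called 2.09%. Of the 10 genes, 3 had a higher and 7 a lower fitted level in KO, with a median log2 fold change of -0.02 against -0.01 over all genes. The WT libraries S7, S8 and S9 carried Xist and no Y-linked counts, while every male KO library carried Y-linked counts. Xist was at -8.55 here and the Y-linked genes at a median of 3.54. Labelled genotype and sex-linked expression can therefore not be fully told apart in this comparison.

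In the labelled female comparison Fabp4 and Gpihbp1 passed the study's thresholds, both lower in KO, and none of the 10 genes reached an adjusted p under 0.05. That rule called 8 of 14511 genes (0.0551%), of which 5 were Xist and the 4 Y-linked genes, and DESeq2 called 383; the study's thresholds called 9.99%, so 2 of 10 was near that background. Since all female WT libraries are S-named and library series was a term of the model, the estimate compares S1, S2 and S3 with S4, S5 and S6. The latter are the KO libraries with Y-linked expression, so labelled genotype and sex-linked expression cannot be told apart in it.

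Fabp4 was highest in the libraries labelled female WT. It stood at 2463, 4401 and 3626 CPM in S1, S2 and S3 (mean 3497 ± 976, SD, n = 3). In the 7 female KO libraries its lowest, median and highest levels were 1308, 1747 and 2536 CPM (mean 1846 ± 432, SD, n = 7), and S4 alone was above S1. The fitted difference was a log2 fold change of -0.67 (SE 0.217, adjusted p = 0.183). Without a term for library series it was -0.92 with an adjusted p of 0.0963. With S4 to S6 left out and no series term it was -1.14, adjusted p = 0.022, a contrast that sets TKO-named against S-named libraries. Without S1 it was -0.88, adjusted p = 0.00839, and without S2 -0.48. With no filter on low counts it was -0.66 with an adjusted p of 0.017.

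In libraries labelled male the genotypes overlapped for Fabp4. Male WT held 1556, 2141, 1271, 2145 and 2227 CPM in WT1, WT2, S7, S8 and S9, and male KO held 1997, 1923, 1676, 1780 and 1898 CPM in S10, S11, S12, TKO5 and TKO6. No KO library fell outside the WT range, and the log2 fold change was -0.02 (SE 0.168). The genotype difference in females less that in males was -0.81 (SE 0.277, adjusted p = 0.226), so a difference between the labelled sexes did not pass the test. Without S1 this interaction had an adjusted p of 0.0323.

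Gpihbp1, the capillary anchor of lipoprotein lipase, had a pattern like that of Fabp4. Its levels in S1, S2 and S3 were 260, 501 and 433 CPM (mean 398 ± 124, SD, n = 3). In female KO the lowest, median and highest were 217, 281 and 292 CPM (mean 271 ± 26.9, SD, n = 7). S2 and S3 stood above all 7 KO libraries and S1 among them. The log2 fold change was -0.61 (SE 0.206, adjusted p = 0.199), without S1 it was -0.84 with an adjusted p of 0.00401, and without S2 it was -0.41. With no filter on low counts it was -0.59 with an adjusted p of 0.0262. In males the level was 237, 339, 123, 287 and 279 CPM in WT1, WT2, S7, S8 and S9, and 246, 235, 279, 261 and 345 CPM in S10, S11, S12, TKO5 and TKO6. S7 was the lowest library of all 20. The labelled male difference was 0.10 (SE 0.217), and the interaction was -0.79 (SE 0.305, adjusted p = 0.251), or 0.0421 without S1.

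S1 decided many calls in this comparison. Without it 2409 genes had an adjusted p under 0.05 in place of 8, and the calls then took in 4 of the 10 genes beside 16.8% of all genes. Fabp4, Gpihbp1 and Fabp5 were lower in KO and Fabp3 higher. The marker values that follow are from the comparison with S1 kept. There, 0 of 12 endothelial markers had an adjusted p under 0.05. Egfl7 alone passed the study's thresholds (-0.83), beside 9.99% of all genes. The log2 fold change of the endothelial markers was negative in 10 of 12, with a median of -0.27 against -0.02 over all genes. Their summed level was 1916 to 2463 CPM in female WT and 1683 to 2338 CPM in female KO. The part of endothelial content in the result was not tested, and in tissue libraries fewer cells of a type and less RNA per cell cannot be told apart. The sum of white adipocyte markers was mostly Thrsp, at 45.2 to 65.0 CPM in female WT and 25.6 to 60.5 CPM in female KO. The other 9 markers, Adipoq and Plin1 among them, summed to 2.58 to 5.25 CPM in female WT and 1.75 to 22.5 CPM in female KO. Of this list 4 genes were tested, 3 with a positive log2 fold change, at a median of 1.39. By the study's thresholds 2 of them, Cidec (1.60) and Cfd (2.72), were higher in KO, as were 3 of 5 atrial markers tested. Mitochondrial reads made up 30.4% of S2 and 25.6% of S3, where Fabp4 and Gpihbp1 were highest, 19.3% of S1, and at most 22.3% of S4, S5 and S6. Erythroid markers summed to 232, 1009 and 799 CPM in S1, S2 and S3 and to 307, 404 and 631 CPM in S4, S5 and S6. Of 5 erythroid and 5 mesothelial markers, 1 each had a positive log2 fold change, with medians of -0.50 and -0.73. The part of adipose or atrial tissue, of erythroid or mesothelial content or of the mitochondrial share in the lower levels was not tested.

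Lpl, the secreted lipase itself, was the steadiest of the 10 genes. Its 3 female WT libraries gave 6578, 6512 and 6544 CPM, and female KO gave 5706, 6134 and 6847 CPM as lowest, median and highest. In males the WT libraries held 6490, 6041, 5283, 7313 and 5447 CPM in the order above and the KO libraries 6806, 4979, 4938, 6051 and 5882 CPM. The ranges overlapped in both sexes, and the log2 fold change was -0.11 (SE 0.15) in males and -0.11 (SE 0.134) in females.

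Vldlr, a receptor for triglyceride-rich particles, had its widest range in the male libraries. It held 347, 232, 140, 268 and 127 CPM in WT1, WT2, S7, S8 and S9 and 204, 121, 102, 271 and 159 CPM in S10, S11, S12, TKO5 and TKO6. The labelled male log2 fold change was -0.39 (SE 0.272, adjusted p = 0.882). In females the WT libraries gave 216, 247 and 206 CPM and the KO libraries 188, 246 and 338 CPM as lowest, median and highest, a difference of 0.22 (SE 0.186). The signs were opposite, and the interaction of 0.38 (SE 0.37) did not pass the test.

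Of the membrane transport proteins, Cd36 overlapped between genotypes throughout. Male WT libraries gave 2814, 2719, 1290, 2763 and 1817 CPM, male KO libraries 2597, 1726, 1928, 2734 and 2496 CPM, and female WT libraries 3203, 2685 and 2305 CPM. Female KO ran from 2266 over a median of 2414 to 3057 CPM. Its log2 fold change was 0.01 in both labelled sexes (SE 0.203 in males, 0.15 in females), and the male sign turned with S7, S8 and S9 left out, where it was -0.10.

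Slc27a1, which couples fatty acid entry to acyl-CoA formation, had 242, 179, 254, 191 and 162 CPM in the male WT and 187, 152, 187, 196 and 176 CPM in the male KO libraries. In females S1, S2 and S3 held 178, 188 and 234 CPM, and KO ran from 145 over 155 to 204 CPM, with 5 of 7 KO libraries below every WT library. The log2 fold change was -0.37 (SE 0.152, adjusted p = 0.244) in females, -0.21 (SE 0.149) in males and -0.25 (SE 0.0989, adjusted p = 0.989) over all 20 libraries. With 1 library left out the female value ranged from -0.45 (without S1) to -0.25 (without S3). Slc27a4, a related transporter at low level, ranged from 16.7 to 25.8 CPM and differed by -0.02 (SE 0.0969) in males and 0.15 (SE 0.168) in females. For Got2 the range was 547 to 923 CPM, and the difference was -0.02 (SE 0.165) in males and 0.20 (SE 0.139) in females. Leaving out 1 library moved the female value of Slc27a4 from 0.010 (without S2) to 0.32 (without S1). That of Got2 moved from 0.12 (without S3) to 0.33 (without S1).

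Fabp3 overlapped between genotypes in both sexes. Male WT libraries held 4759, 3711, 1709, 4068 and 2392 CPM and male KO libraries 4694, 2644, 2789, 4229 and 3933 CPM, a log2 fold change of 0.15 (SE 0.252). Female WT held 4707, 3593 and 3206 CPM, S4 to S6 held 4402, 4690 and 5248 CPM, and TKO1 to TKO4 held 3481, 3365, 3491 and 3831 CPM. The female log2 fold change was 0.32 (SE 0.16, adjusted p = 0.319). Without S1 it was 0.49 with an adjusted p of 0.0266, and without S3 it was 0.20 with an adjusted p of 0.775. With no series term it was 0.086, and with S4 to S6 left out as well, which sets TKO-named against S-named libraries, it was -0.12.

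Fabp5 was lower in KO in both labelled sexes without passing the test. In females S1, S2 and S3 held 55.7, 90.5 and 71.7 CPM (mean 72.6 ± 17.4, SD, n = 3) and KO gave 40.2, 50.2 and 64.7 CPM as lowest, median and highest (mean 52.4 ± 8.6, SD, n = 7). Of the KO libraries 5 were below every WT library. The log2 fold change was -0.43 (SE 0.202, adjusted p = 0.28), and -0.25 without S2. In males WT held 47.4, 63.7, 61.4, 60.3 and 92.2 CPM and KO held 50.0, 87.9, 50.4, 46.2 and 47.2 CPM, a difference of -0.22 (SE 0.184, adjusted p = 0.882). Without S11, the KO library with the highest level, it was -0.40.

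**Figure D2:**
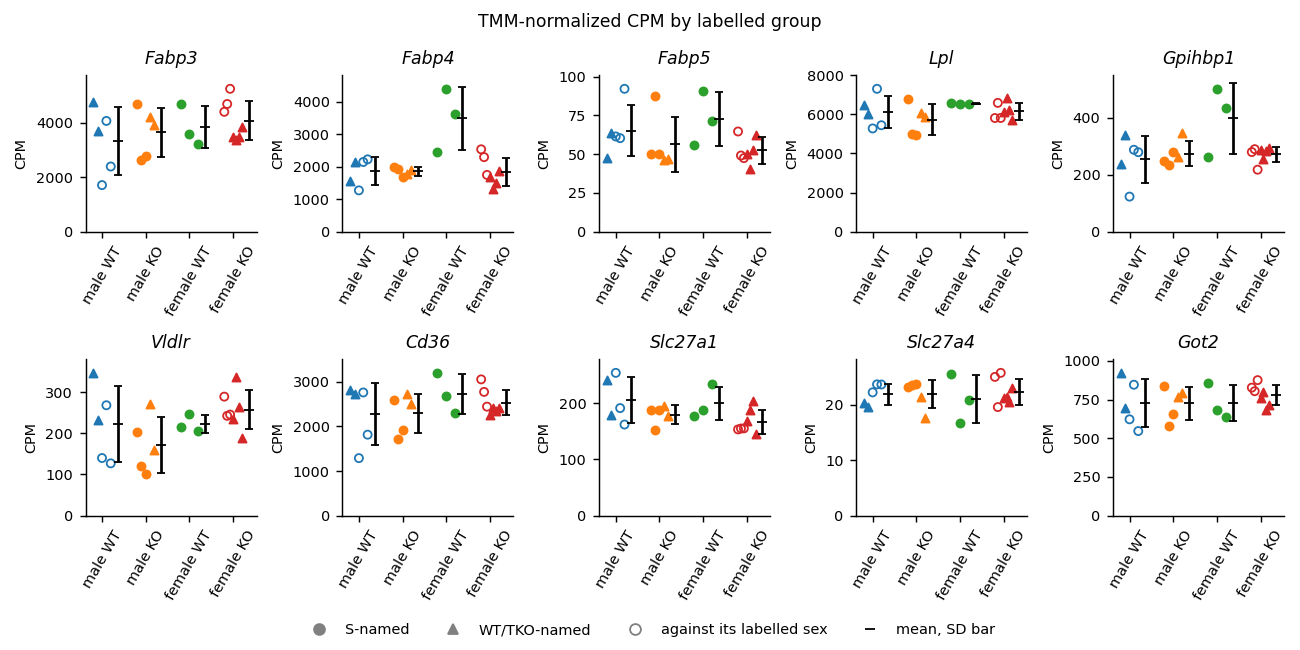
TMM-normalized CPM of each of the 10 genes by labelled group, 1 symbol per library; circles are S-named and triangles WT/TKO-named libraries, open symbols mark the 6 libraries against their labelled sex, and bars show the mean and SD. The female WT libraries S2 and S3 stand highest for Fabp4 and Gpihbp1, while WT and KO ranges overlap for all 10 genes in both labelled sexes. How often the ranges overlap over all genes was not counted.

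With all 20 libraries in 1 model and labelled sex and library series as terms, none of the 10 genes differed between genotypes at an adjusted p under 0.05. That rule called 0 of 15187 genes (0.0%), 748 genes had an unadjusted p under 0.05, and DESeq2 called 12. Of the 10 genes 7 had a lower and 3 a higher fitted level in KO, with a median log2 fold change of -0.16 against -0.01 over all genes. Fabp4 was at -0.36 (SE 0.159, adjusted p = 0.996) and Fabp5 at -0.26 (SE 0.138). The test of a genotype difference between the labelled sexes called 0 genes (0.0%) too, with 2375 at an unadjusted p under 0.05 and 19 called by DESeq2. By the study's thresholds 2 of the 10 genes, Fabp4 and Gpihbp1, passed it with a lower value in females, beside 11.3% of all genes. In the same test 5 of 12 endothelial markers were lower and 1 higher by these thresholds, with 9 of 12 negative and a median of -0.33. White adipocyte markers were higher in 6 of 7 (median 6.08) and atrial markers in 3 of 6, with all 6 positive. None of these markers had an adjusted p under 0.05, and their part in the values of Fabp4 and Gpihbp1 was not tested. Sex-linked expression was mixed into both tests, with Xist at -8.46 over all libraries and 7.08 in the interaction. It cannot be fully told apart from labelled genotype there.

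**Figure D3:**
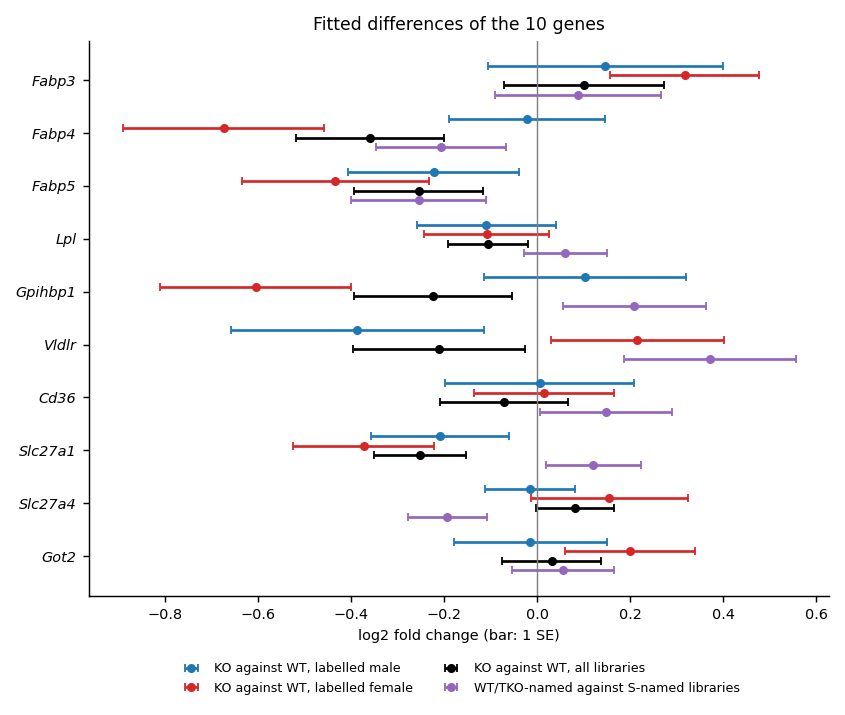
Fitted log2 fold change (points) and 1 SE (bars) of the 10 genes in 4 comparisons: KO against WT in libraries labelled male, in those labelled female and in all 20, and WT/TKO-named against S-named libraries. Among these 4 comparisons the female estimates of Fabp4 (-0.67) and Gpihbp1 (-0.61) lie furthest from 0, and none of the plotted estimates had an adjusted p under 0.05.

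None of the 10 genes was called between the library series. Between WT/TKO-named and S-named libraries, with the 4 labelled groups as terms, 2231 of 15187 genes were called (14.7%), 992 higher and 1239 lower. At that share 0 of 10 says little about the 10 genes. Vldlr was 0.37 higher in WT/TKO-named libraries (SE 0.185, adjusted p = 0.177) and Slc27a4 0.19 lower (log2 fold change -0.19, SE 0.0851, adjusted p = 0.128). The unadjusted p of Slc27a4 was 0.0343, and limma on log2(FPKM + 1) gave it an adjusted p of 0.0484. The other 8 genes had values between -0.26 and 0.21.

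Fabp3, Cd36, Vldlr and Lpl were lowest in the same 4 libraries, S7, S9, S11 and S12, 2 labelled male WT and 2 labelled male KO. Fabp3 held 1709 to 2789 CPM in these and 3206 to 5248 CPM in the other 16, and Cd36 1290 to 1928 against 2266 to 3203 CPM. Vldlr held 102 to 140 CPM against 159 to 347 CPM, and Lpl 4938 to 5447 against 5706 to 7313 CPM. For Got2, 3 of its lowest 4 libraries were among them (547 to 655 CPM against 641 to 923 CPM). Fabp4, Fabp5, Gpihbp1, Slc27a1 and Slc27a4 did not share this order. How many of all genes are lowest in these 4 libraries was not counted. The order is therefore not shown to be particular to the genes followed here.

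These 4 libraries were also those with the highest levels of 6 atrial markers, such as Sln, Myl7 and Nppa. The atrial list summed to 2192 to 7505 CPM in them and to 32.5 to 598 CPM in the other 16. S7 also held 1139 CPM of white adipocyte markers, against at most 91.5 CPM in every other library. The cardiomyocyte markers were lowest of all 20 libraries in S7 (45003 CPM), S9 (47096 CPM) and S11 (50200 CPM), and stood at 56433 CPM in S12. Mesothelial markers were highest in S7 (320 CPM), S11 (125 CPM) and S9 (63.8 CPM), and stood at 17.3 CPM in S12. Fibroblast markers were highest in S7 (1554 CPM), S9 (1505 CPM) and S12 (1471 CPM), and stood at 1355 CPM in S11. Smooth muscle and pericyte markers were lowest in S7 (778 CPM), S9 (1099 CPM) and S11 (1136 CPM), and stood at 1309 CPM in S12. The part of atrial, adipose or mesothelial tissue, or of cardiomyocyte, fibroblast or smooth muscle content, in the lower levels was not tested. With the 4 libraries left out, an alternative chosen after seeing the data, the labelled male log2 fold change was 0.03 for Fabp3 and -0.42 for Vldlr. Between library series that of Vldlr was then 0.03 in place of 0.37 and that of Fabp3 -0.28 in place of 0.09, with an adjusted p of 0.932 and 0.116.

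**Figure D4:**
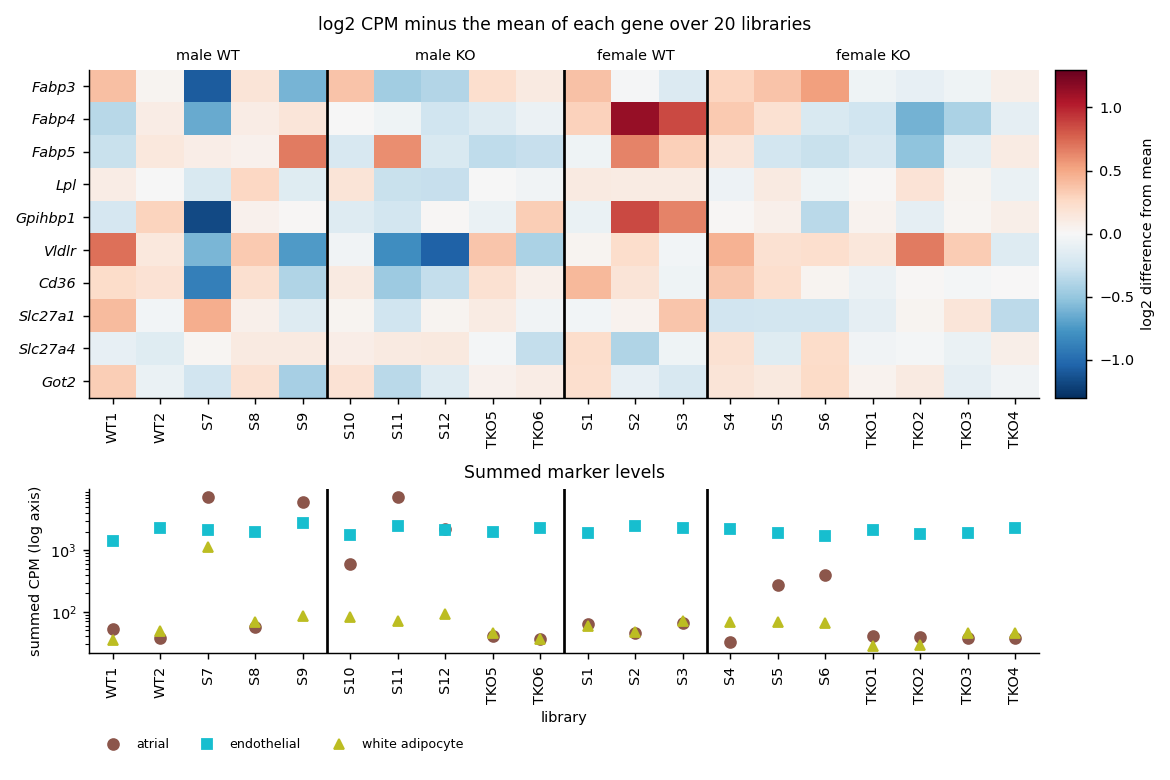
Upper panel: log2 CPM of each of the 10 genes minus its mean over 20 libraries, by library and labelled group. Lower panel: summed CPM (log axis) of atrial, endothelial and white adipocyte markers in the same libraries. Fabp3, Cd36, Lpl and Vldlr are lowest in S7, S9, S11 and S12, where atrial markers sum to 2192 CPM or more. The share of all genes lowest there was not counted.

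The genes whose pattern over the 20 libraries was most like that of Gpihbp1, by the root mean square difference of centred log2 CPM among 15187 genes, were Cd300lg (0.12), Robo4 (0.14) and Fbxo7 (0.18). Robo4 is an endothelial receptor and was on the endothelial marker list. For Fabp4 they were Grap (0.20), Casp8 (0.20) and Kin (0.23), and for Vldlr Pank1 (0.19), Cobll1 (0.21) and Mbd1 (0.21). Grap, Casp8 and Kin stood at only 9.26 to 37.7 CPM. These are descriptions with no test, over 20 libraries of 1 tissue that differ in depth, library series and marker content.

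Other genes of the pathway were followed in 5 lists. None of them reached an adjusted p under 0.05 in a genotype comparison or the interaction. The study's thresholds called 4 of 37 tested genes in males, beside 2.09% of all genes, namely Ppargc1a, Ppara, Apoc1 and Acsl6, all lower in KO. White adipocyte markers were lower in 6 of 7 tested by the same thresholds (median -3.92), and without Thrsp they summed to 1064 CPM in S7, labelled male WT, against at most 56.1 CPM in every other library. In females the thresholds called 2 of 35, beside 9.99% of all genes, namely Ppargc1a and Lsr, both higher in KO. For the interaction they called 8 of 37, 7 with a higher and 1 with a lower genotype difference in females, beside 11.3% of all genes, where white adipocyte and atrial markers had the values given above. The part of these markers in the calls was not tested. The male call of Apoc1 rests on S7, without which its sign turned. Among the regulators of fatty acid uptake genes, Ppargc1a, a coactivator of oxidative metabolism, was at -0.94 in the labelled male comparison (SE 0.314, adjusted p = 0.882) and at 0.83 in the labelled female comparison (SE 0.267, adjusted p = 0.184), with an interaction of 1.45 (adjusted p = 0.226). With no filter on low counts these adjusted p were 0.0305, 0.000271 and 0.0421, and without S1 that in females was 0.0441. Among the genes of that list at 1 FPKM or more Ppara, the nuclear receptor for fatty acids, had the largest size over all libraries, at -0.47 (SE 0.275).

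Among the regulators of lipoprotein lipase, 9 of 14 were tested over all libraries. Angptl4, a secreted inhibitor of the lipase, was at -0.55 over all libraries (SE 0.183, adjusted p = 0.858) and -0.47 in females (SE 0.32, adjusted p = 0.457), where it was 0.0021 without S2. Apoc1, an apolipoprotein, had the largest size of its list in males at -2.69 (SE 1.2, adjusted p = 0.882) and in the interaction at 6.08 (SE 1.7, adjusted p = 0.223, or 0.00771 with no filter on low counts). Of the male WT libraries S7 held 472 counts of it and the other 4 at most 19, and without S7 the male value was 0.67. Among the acyl-CoA synthetases Acsl1, the main cardiac form, was at -0.51 in males (SE 0.276), Acsl3 at 0.51 in females (SE 0.242) and 0.71 in the interaction (SE 0.246, adjusted p = 0.0339 without S1), and Acsl4 at -0.33 over all libraries (SE 0.106, adjusted p = 0.858).

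Among the lipoprotein receptors Scarb1, which binds high-density lipoprotein, was at 0.36 in males (SE 0.143), -0.40 in females (SE 0.238) and -0.79 in the interaction (SE 0.268, adjusted p = 0.226, or 0.029 without S1). Apoe, a ligand of these receptors, was at -0.16 over all libraries (SE 0.2). Of the other binding and transport proteins 5 of 14 were tested. Among those at 1 FPKM or more the caveolar proteins had the largest sizes, with Cavin1 at 0.16 in males (SE 0.171) and 0.14 over all libraries (SE 0.125), and Cav1 at -0.19 in females (SE 0.192) and in the interaction (SE 0.265).

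Between the library series 12 of 37 tested genes of the lists were called, 3 higher and 9 lower, beside 14.7% of all genes. In the same comparison 6 of 6 atrial, 6 of 7 white adipocyte, 6 of 8 macrophage and 2 of 5 mesothelial markers tested were called lower, with median log2 fold changes of -8.37, -5.56, -0.63 and -2.28. Of 11 cardiomyocyte markers 2 were called higher and 9 were positive, and of 12 endothelial markers 2 were called higher and 2 lower. Of the other lists, 1 of 5 erythroid and 1 of 2 brown adipocyte markers were called lower, 1 of 7 smooth muscle and pericyte markers higher and 1 lower, and 0 of 8 fibroblast markers. The part of these cell types in the calls was not tested. The lipase regulators Apoc1, Apoc3 and Pcsk5 were lower in WT/TKO-named libraries, 3 of 9 tested. Apoc1 had 0 to 2 counts in WT/TKO-named and 1 to 472 counts in S-named libraries (adjusted p = 0.00196). Apoc3 was at 0 in 7 of 8 WT/TKO-named libraries and reached 51 counts in the others (adjusted p = 0.00269), and Pcsk5, a protease, was at -0.74 (SE 0.205, adjusted p = 0.0206). Of 6 lipoprotein receptor genes, Apoe (-0.76), Lrp8 (-2.40) and Lsr (-1.22) were lower and Scarb1 (0.45) higher.

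Of the other binding proteins Slc27a2, a transporter known from liver and kidney, was lower, at 0 counts in 7 of 8 WT/TKO-named libraries and 2 to 116 counts in S-named ones (adjusted p = 0.000587). Acsl5 was lower (-0.54, SE 0.105, adjusted p = 0.00236). Of the 12 regulators of uptake genes Flt1, a receptor of Vegfb (0.65, SE 0.135, adjusted p = 0.00378), and Meox2, an endothelial transcription factor (0.69, SE 0.171, adjusted p = 0.011), were higher and Vegfb lower (-0.30, SE 0.0991, adjusted p = 0.0451). With the 6 libraries against their labelled sex left out, 0 of the 12 called genes were called and 2 were not tested, while 2.02% of the 2231 genes called between series were called again. With the 4 atrial-marker libraries left out, 4 of the 12 were called and 2 were not tested, while 51.5% of the 2231 were called again.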

How the data were processed

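Poly-A RNA libraries of mouse hearts (NEBNext Ultra RNA, paired 150 bp reads, Illumina HiSeq) were analysed from a table deposited by the authors, which held raw counts per gene and FPKM for 29339 genes; per the labels, HISAT2, HTSeq 0.6.1p2 and DESeq2 1.26.0 were used on GRCm38. The deposited FPKM were computed from those counts, the column total and 1 length per gene. No column lacked a sample.

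Counts were tested in R 4.3.3 with edgeR 4.0.16 (TMM, glmQLFit, glmQLFTest; genes reaching 10 counts in 3 or more of the libraries fitted; Benjamini-Hochberg over all genes tested). The SE is the log2 fold change divided by the root of F. DESeq2 1.42.0 and limma 3.58.1 on log2(FPKM + 1), with a mean of at least 1 FPKM, were alternatives. The comparisons were KO against WT within each labelled sex and over all libraries, the difference between the sexes (interaction), and the library-name series. The interaction was fitted over all 20 libraries with a shared series term. The series was a term of each genotype model. Scripts were tested on simulated counts. Outlying libraries were flagged at Dixon's limit, which was derived from simulated normal samples. Replicates of a group differed beyond counting noise in all 44 pairs, so all were kept as separate samples. The 10 genes, the pathway and marker lists and the tests were chosen with earlier results of these data known. The text names all 10 genes and, of the lists, genes with an adjusted p under 0.05 or, where fewer than 3 were called, the largest absolute log2 fold change per list among genes of at least 1 FPKM; similar genes were those with the smallest root mean square difference of centred log2 CPM. The 4 libraries over 1000 CPM of atrial markers were left out in an alternative chosen after seeing the data.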

Additional observations from a re-analysis of the deposited data

Results flagged for a closer look

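Fabp5 in S11, a library labelled male KO, was far from the other 4 libraries of its group: 87.9 CPM against 46.2 to 50.4 CPM, a gap of 0.9 of the group's range. It was the only one flagged among 30 groups of 5 or 7 libraries for the 10 genes, where chance flags about 1 in 20 groups. S11 also held the highest sum of atrial markers, 7505 CPM, and their part in the level was not tested.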

How the results depend on the processing

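No paired analysis was possible because replicate numbers run on within each labelled group and link no animals between groups. The order of the 10 genes by median level was the same in CPM per kilobase. The gene lengths for this were derived from the deposited FPKM. The order within a library could therefore not differ, and this is no independent check. The labelled female comparison with the 6 libraries against their labelled sex left out could not be fitted with a series term. At an adjusted p under 0.05, DESeq2 called 12 genes in males, 383 in females, 12 over all libraries and 19 for the interaction. Without a filter on low counts, 59, 1110, 3 and 129 genes were called, and 852 and 2239 genes passed the study's thresholds in males and females. limma called 3 genes in females and 1 over all libraries, and by the study's thresholds 50 in males and 498 in females. With at least 10 counts in every library, 0 genes were called in females and 183 passed the study's thresholds in males. S-named libraries alone called 5 genes in males and 9 over all libraries, and leaving out the atrial-marker libraries called 4 in males. In females 1 fit of all 20 libraries called 2 genes, as did the fit without a series term. Leaving out the libraries against their labelled sex called 366 genes in females without a series term, 13 over all libraries, and 52 in place of 2231 between library series. The cause was not tested.

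Leaving out 1 library at a time, the adjusted p rule called 0 to 1 genes in males, 1 to 2409 in females (the most without S1), 0 to 1 over all libraries, 0 to 1127 for the interaction (the most without S1) and 1568 to 2603 between series. The study's thresholds called 205 to 484 genes in males and 640 to 2954 in females.

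With 1 library left out at a time the sign turned for these values, which ranged, as log2 fold changes, from -0.12 to 0.18 for Cd36 in males, -0.057 to 0.21 for Gpihbp1 in males, -0.047 to 0.35 for Fabp3 in males, -0.11 to 0.092 for Got2 in males, -3.24 to 0.67 for Apoc1 in males, -0.052 to 0.034 for Slc27a4 in males, -0.13 to 0.066 for Fabp4 in males, -0.75 to 0.0021 for Angptl4 in females, -0.094 to 0.14 for Cd36 in females, -0.014 to 0.11 for Got2 over all libraries, -0.015 to 0.16 for Fabp3 between series and -0.016 to 0.093 for Got2 between series.

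The other turns of sign were these. With the libraries against their labelled sex left out, Cd36 was -0.10 in males, Fabp3 was -0.070 in males, Apoe was 0.14 over all libraries, Fabp3 was -0.21 over all libraries, Got2 was -0.10 over all libraries and Cav1 was 0.13 in the interaction. Without a series term, Cd36 was -0.0083 in males and Cd36 was -0.11 in females. With WT/TKO-named libraries alone, Cd36 was -0.10 in males and Fabp3 was -0.071 in males. Without the atrial-marker libraries, Cd36 was -0.089 in males, Gpihbp1 was -0.028 in males, Cd36 was -0.13 between series, Lpl was -0.078 between series, Fabp3 was -0.28 between series and Got2 was -0.14 between series. With upper-quartile normalization, Got2 was 0.025 in males, Slc27a4 was 0.023 in males and Fabp4 was 0.0076 in males. With at least 10 counts in every library, Got2 was 0.0012 in males. With S-named libraries alone, Got2 was 0.039 in males, Slc27a4 was 0.017 in males and Cd36 was 0.054 over all libraries. With limma, Fabp4 was 0.0056 in males, Lpl was -0.037 between series and Got2 was -0.044 between series. In 1 fit of all 20 libraries, Cd36 was -0.19 in females. With those libraries left out and no series term, Cd36 was -0.22 in females, Fabp3 was -0.12 in females and Scarb1 was 0.012 in females. With KO libraries alone, Fabp3 was -0.14 between series and Got2 was -0.033 between series. None of these turned values had an adjusted p under 0.05.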
